A study of Saccharomyces cerevisiae with 13 samples.

Results

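The genes described here encode the proteins that switch on the replicative helicase at origins of DNA replication in budding yeast. They are the 4 subunits of GINS, namely PSF1 (YDR013W), PSF2 (YJL072C), PSF3 (YOL146W) and SLD5 (YDR489W), the helicase cofactor CDC45 (YLR103C), the loading factors SLD2 (YKL108W), SLD3 (YGL113W) and DPB11 (YJL090C), and the kinase genes CDC7 (YDL017W) and DBF4 (YDR052C). These 10 of 6140 genes with a value were chosen by name for the roles of their products, with earlier results of these data known. All 10 were measured on all 13 arrays.

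Origins are licensed in G1, when the origin recognition complex, Cdc6 and Cdt1 load the MCM helicase onto DNA in an inactive form. At the start of S phase, Cdc7 bound to its activator Dbf4 phosphorylates MCM, which lets Sld3 and Cdc45 bind, and the S phase cyclin kinase phosphorylates Sld2 and Sld3 so that both bind the scaffold protein Dpb11 and GINS is brought in. Cdc45, MCM and GINS together form the active helicase of the fork. Many DNA replication genes of yeast are transcribed in late G1 under MBF, the factor made of Mbp1 and Swi6.

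The cells were W303 yeast in an SSD1-V background, grown in the rich medium YEPD, arrested in G1 by alpha factor, a mating pheromone, and released into fresh YEPD. The 13 groups are single time points with 1 array each: 0 min, which is the arrest itself, and then every 10 min up to 120 min, which the design text gives as 2 cell cycles. Each array compares cDNA of the sample in Cy5 with cDNA of an untreated, asynchronous W303a culture in Cy3. Which SSD1 allele the reference culture carried is not stated. There were no replicates and no dye swap, so the errors below are standard errors of a fitted curve. The p-values weigh the fitted terms against the scatter of single arrays around that curve in 1 time course, not against variation between cultures. Values are the deposited ratios, 1 for each open reading frame, and are treated as log2 of sample over asynchronous culture. The log base is not stated, and the sample is taken as the numerator because it carried Cy5, which makes the direction likely rather than certain; with the ratio inverted, all signs would change and all peaks would lie 30 min away. Between 6178 and 6186 rows were measured per array, and the spread of the arrays ran from an SD of 0.39 (0 min) to one of 0.24 (100 min). The 7 MATa-specific genes, such as BAR1, STE2 and MFA2, had a median ratio of 1.85 at 0 min. Over the arrays this median ran from -1.6 to 1.85. The median of the 4 MATalpha-specific genes ran from -0.18 to 0.04 over the arrays, although SAG1 read 0.73 at 0 min. Ratios do not give absolute levels.

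Transcripts of 9 of the 10 genes rose and fell with the cycle and peaked in the same part of it, between 15.5 and 24.6 min after release on a 60 min clock. These peak times depend on the assumed period, and ran from 18.4 to 27.2 min with a period of 55 min, from 12.6 to 22.7 min with 65 min and from 10.0 to 21.1 min with 70 min. The tenth, SLD3, did not pass. Each gene was fitted with a 60 min cosine wave plus a linear drift, and a gene is called periodic when limma's moderated F test of the wave gave an adjusted p under 0.05, adjusted by the Benjamini-Hochberg method over all 6137 genes tested. Across these genes 30.1% were periodic, and 5.15% were periodic with a peak between 15 and 25 min, a window set with the results in view that holds 9 of the 10 members. The swing is the fitted difference between peak and trough on the log2 scale. The median swing was 0.41 for the 10 members and 0.21 for all genes, while for the 9 periodic members it was 0.42, close to the 0.40 of the periodic genes. CDC45 had the widest, at 1.57 ± 0.20. With a correlation between neighbouring arrays estimated from the data, 0.45 at 10 min apart, 7 members were periodic, against 13.9% of all genes; CDC7 (adjusted p = 0.13) and DBF4 (adjusted p = 0.059) were the calls lost.

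**Figure D1:**
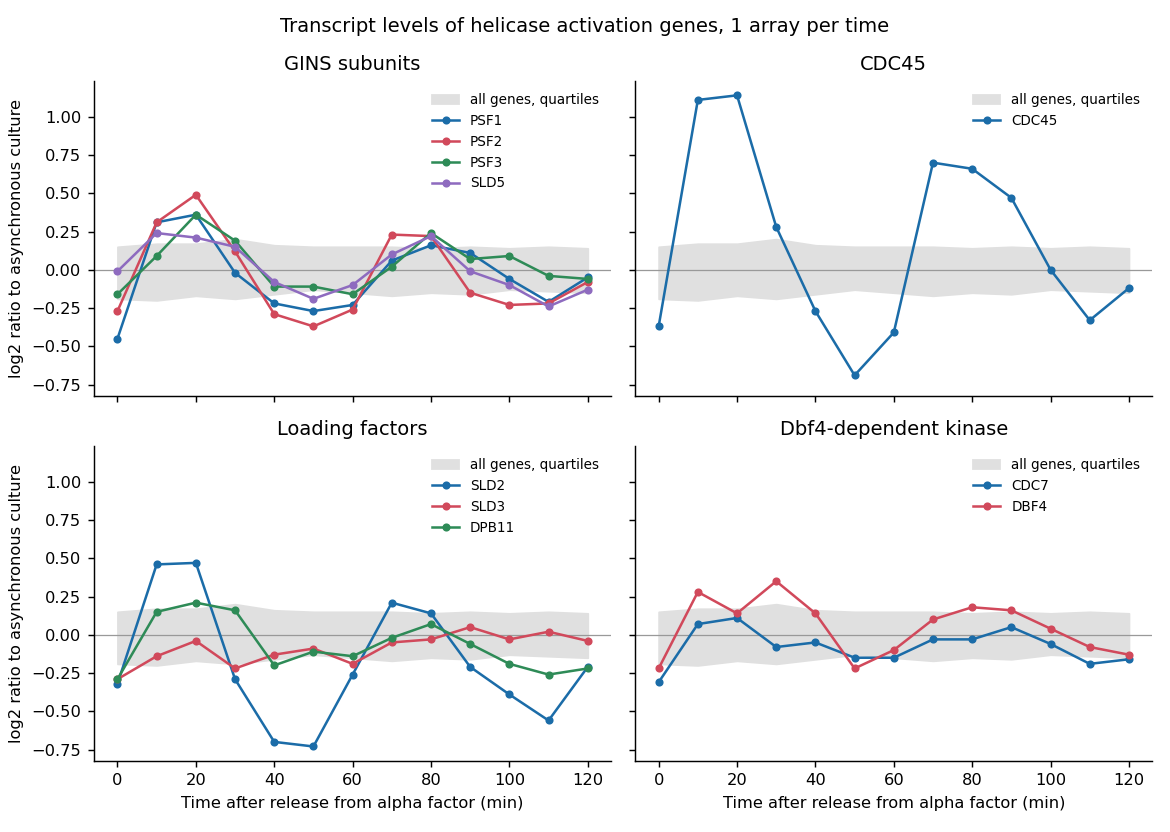
Log2 ratio to the asynchronous culture (vertical axis) on each of the 13 arrays against time after release in min (horizontal axis), with the members grouped by role and 1 array per point. The grey band is the range between the quartiles of all genes; CDC45 stands far outside it at 10 and 20 min (1.11 and 1.14), while SLD3 stays within 0.34 from lowest to highest array.

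CDC45 showed the strongest oscillation of the 10 genes. Its product travels with the fork as part of the helicase and is needed both to start and to extend replication. CDC45 read -0.37 at 0 min, then 1.11, 1.14, 0.28, -0.27, -0.69 and -0.41 from 10 to 60 min, and 0.70, 0.66, 0.47, 0.00, -0.33 and -0.12 from 70 to 120 min. The 3 highest arrays of the second cycle, 70 to 90 min, were all below the arrays of 10 and 20 min, and both troughs came late, at 50 and 110 min. The fitted swing corresponds to a 2.96-fold difference, which 98.9% of all genes and 96.4% of the periodic genes were below, with a peak at 19.0 ± 1.1 min (adjusted p = 0.000486, limma). Leaving out any 1 array kept the swing between 1.47 and 1.76 and the call in 13 of 13 cases.

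All 4 GINS genes were periodic, with swings from 0.39 to 0.71 and peaks from 17.6 to 22.8 min. The 4 proteins form a compact complex of 1 copy each, and each is essential. PSF2 had the widest swing of the complex. PSF2 read -0.27 at 0 min, 0.31, 0.49, 0.12, -0.29, -0.37 and -0.26 from 10 to 60 min, and 0.23, 0.22, -0.15, -0.23, -0.22 and -0.08 from 70 to 120 min. It was above 0 on 5 arrays, 10 to 30 min and 70 to 80 min. The swing of PSF2 was 0.71 ± 0.11 with a peak at 17.6 ± 1.3 min (adjusted p = 0.00147, limma).

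PSF1, the subunit through which GINS helps to hold the leading strand polymerase, came next. PSF1 read -0.45 at 0 min, the lowest value of any member on that array, then 0.31, 0.36, -0.02, -0.22, -0.27 and -0.23 from 10 to 60 min, and 0.06, 0.16, 0.11, -0.06, -0.21 and -0.05 from 70 to 120 min. It was already back near 0 at 30 min, when PSF2 and PSF3 were still above 0. The swing of PSF1 was 0.59 ± 0.11, with a peak at 19.7 ± 1.6 min (adjusted p = 0.0047, limma).

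SLD5 and PSF3 moved less. SLD5 read -0.01 at 0 min, 0.24, 0.21, 0.15, -0.08, -0.19 and -0.10 from 10 to 60 min, and 0.10, 0.22, -0.01, -0.10, -0.24 and -0.13 from 70 to 120 min. PSF3 read -0.16 at 0 min, 0.09, 0.36, 0.19, -0.11, -0.11 and -0.16 from 10 to 60 min, and 0.02, 0.24, 0.07, 0.09, -0.04 and -0.06 from 70 to 120 min. SLD5 repeated nearly the same height in both cycles, whereas PSF3 had its highest single arrays at 20 and 80 min. Their swings were 0.39 ± 0.06 for SLD5 and 0.39 ± 0.08 for PSF3, with peaks at 19.0 ± 1.2 and 22.8 ± 1.9 min (adjusted p = 0.000916 and 0.00631, limma). The swing of PSF2 exceeded that of PSF3 by 0.32 ± 0.08 and that of SLD5 by 0.31 ± 0.11, where the error of a difference is the standard error with the arrays' shared deviations taken into account. PSF1 and SLD5 differed by 0.20 ± 0.11, less than 2 standard errors. The swings of subunits of this 1 complex thus spanned 0.39 to 0.71 while their peaks lay within about 5 min, with PSF3 later than PSF2 by 5.16 ± 1.35 min.

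The 3 loading factors differed from each other more than the GINS genes did. SLD2, whose product binds Dpb11 once phosphorylated by the cyclin kinase, had the second widest swing of all 10 genes and the earliest peak. SLD2 read -0.32 at 0 min, 0.46, 0.47, -0.29, -0.70, -0.73 and -0.26 from 10 to 60 min, and 0.21, 0.14, -0.21, -0.39, -0.56 and -0.21 from 70 to 120 min. It was the lowest member on the 30, 40, 50, 90, 100 and 110 min arrays, and it was above 0 on 4 arrays only, at 10, 20, 70 and 80 min. Its swing was 1.07 ± 0.12, with a peak at 15.5 ± 0.9 min (adjusted p = 0.000253, limma).

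DPB11 encodes the scaffold that bridges the phosphorylated proteins and also works in checkpoint signalling. DPB11 read -0.29 at 0 min, 0.15, 0.21, 0.16, -0.20, -0.11 and -0.14 from 10 to 60 min, and -0.02, 0.07, -0.06, -0.19, -0.26 and -0.22 from 70 to 120 min. Its first peak covered 3 arrays, while in the second cycle a single array, at 80 min, stood above 0. The swing was 0.37 ± 0.08 with a peak at 20.9 ± 2.0 min (adjusted p = 0.0115, limma).

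SLD3, whose product recruits Cdc45 to licensed origins, was the exception among the members. SLD3 read -0.29 at 0 min, -0.14, -0.04, -0.22, -0.13, -0.09 and -0.19 from 10 to 60 min, and -0.05, -0.03, 0.05, -0.03, 0.02 and -0.04 from 70 to 120 min. It was below 0 on every array up to 80 min and lay between -0.05 and 0.05 from 70 min on. The fitted swing was 0.10 ± 0.06 and did not pass (adjusted p = 0.42, limma), nor under any of 23 alternatives (adjusted p from 0.18 to 0.72). Its linear drift was 0.12 ± 0.04 per 60 min and did not pass either (adjusted p = 0.081, limma).

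CDC7 and DBF4, catalytic subunit and activator of 1 kinase, had the latest fitted peaks of the periodic members. That of CDC7 was later than that of PSF3 by only 0.16 ± 2.88 min. CDC7 read -0.31 at 0 min, 0.07, 0.11, -0.08, -0.05, -0.15 and -0.15 from 10 to 60 min, and -0.03, -0.03, 0.05, -0.06, -0.19 and -0.16 from 70 to 120 min. DBF4 read -0.22 at 0 min, 0.28, 0.14, 0.35, 0.14, -0.22 and -0.10 from 10 to 60 min, and 0.10, 0.18, 0.16, 0.04, -0.08 and -0.13 from 70 to 120 min. DBF4 was the only member above 0 at 40 min, and its highest array came at 30 min, when most members were already lower than at 20 min. DBF4 had a swing of 0.42 ± 0.08 with a peak at 24.6 ± 2.0 min (adjusted p = 0.00816, limma). The call held in 13 of 13 cases with 1 array left out and was lost with an estimated correlation (adjusted p = 0.059).

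The CDC7 call was the weakest. The swing was 0.25 ± 0.07 with a peak at 22.9 ± 2.7 min (adjusted p = 0.041, limma), and 8.45% of the periodic genes had a smaller one. CDC7 stayed periodic in 3 of 13 cases with 1 array left out (without 10, 30 or 80 min), with an adjusted p up to 0.11 without the 0 min array, where its swing was 0.19. The swings of DBF4 and CDC7 differed by 0.16 ± 0.09, less than 2 standard errors.

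**Figure D2:**
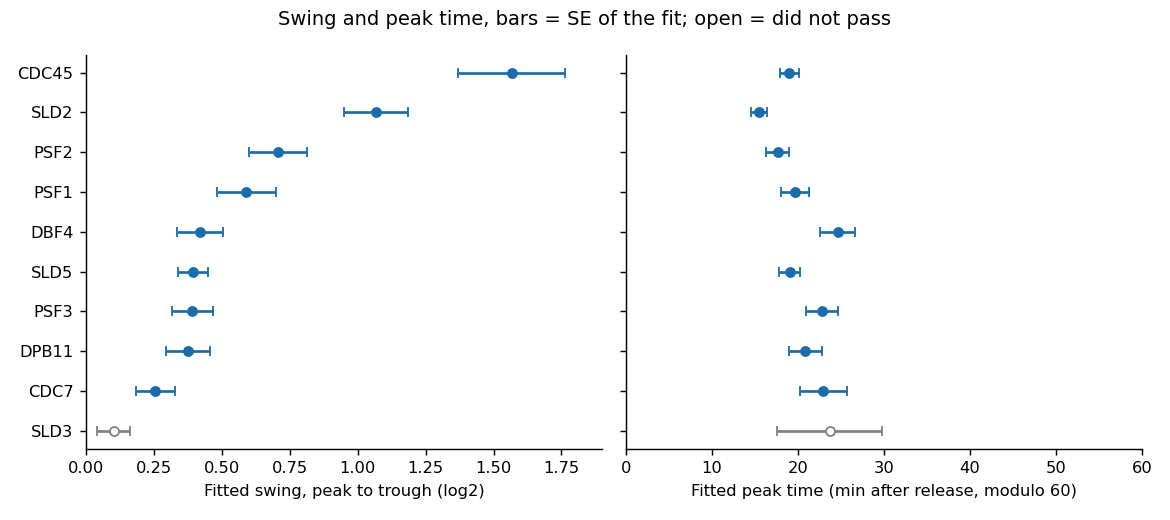
Fitted swing on the log2 scale (left) and fitted peak time in min after release, modulo 60 (right), for the 10 members ordered by swing; bars are standard errors of the fit over 13 arrays. Swings run from 0.10 for SLD3 (open symbol, did not pass) to 1.57 for CDC45, while the peaks of the 9 periodic genes crowd between 15.5 and 24.6 min.

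Set in order of fitted peak, the periodic members ran SLD2, PSF2, CDC45, SLD5, PSF1, DPB11, PSF3, CDC7 and DBF4. None of the 8 neighbouring pairs in that order differed by more than 2 standard errors. Of all 36 pairs, 17 did, with no allowance for the number of pairs. The errors of these differences treat the arrays as independent, although the correlation 10 min apart was estimated at 0.45. SLD2 peaked before CDC45 by 3.51 ± 0.75 min, and DBF4 after SLD2 by 9.13 ± 2.20 min and after CDC45 by 5.63 ± 2.00 min. These differences are shorter than the 10 min between arrays and rest on the shape of the fitted wave. In order of swing, CDC45 exceeded SLD2 by 0.50 ± 0.14 and SLD2 exceeded PSF2 by 0.36 ± 0.11, and the remaining 6 neighbouring pairs differed by less than 2 standard errors. A period searched between 40 and 90 min was best at 60 min over all 10 members, at 57 to 62 min for single periodic members and at 67 min for SLD3. Over the 9 periodic members, which had been called with a 60 min wave, it was 59 to 62 min with 1 array left out.

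The single highest arrays were also read without a fit. In the first cycle the highest array was that of 20 min for 8 members, 10 min for SLD5 and 30 min for DBF4. In the second it was 80 min for 5 members, 70 min for PSF2, CDC45 and SLD2, and 90 min for SLD3 and CDC7. Both maxima fell within 10 to 30 min and 70 to 90 min for 10 of 10 members, against 33.3% of all genes, in windows set with the results in view that take in 3 of the 6 arrays of each cycle. SLD3 is among the 10, with maxima of only 0.05 in the second cycle and -0.04 in the first. The lowest array was that of 50 min for 7 members in the first cycle and that of 110 min for 6 in the second.

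In the alpha factor arrest these transcripts were low, and 10 min after release they were higher. At 0 min all 10 members were below 0, from -0.45 for PSF1 to -0.01 for SLD5, with a median of -0.29 beside -0.02 for all genes. At 10 min 9 of 10 were above 0, with a median of 0.26 beside -0.03 for all genes. The difference of 10 min minus 0 min was above 0 for 10 of 10 members, against 42.6% of all genes, and at least 0.25 for 9, against 12.1% of all genes; PSF3 and SLD5 were at exactly 0.25, so 7 lay above it. It was 1.48 for CDC45 (1.11 at 10 min, -0.37 at 0 min), 0.78 for SLD2 (0.46 and -0.32), 0.76 for PSF1 (0.31 and -0.45) and 0.15 for SLD3 (-0.14 and -0.29). The median over members was 0.47, or 0.37 with every array scaled to 1 spread, and over all genes it was -0.03. Each side of this difference is 1 array, so there is no test.

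The arrest was also compared with the same position of later cycles, as 0 min minus the mean of 60 and 120 min. This difference was below 0 for 9 of 10 members, against 52.1% of all genes, and the 0 min value was below both later arrays for 7, against 39.8%. The median over members was small, -0.11, beside -0.01 for all genes, and it was -0.02 with every array scaled to 1 spread. PSF1 differed most, at -0.45 at 0 min, against -0.23 at 60 min and -0.05 at 120 min. SLD5 went the other way, at -0.01 at 0 min, against -0.10 and -0.13. With 1 array against 2 there is no test.

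No member passed the test of a difference between the second oscillation and the first. The fitted swing over 70 to 120 min was below that over 10 to 60 min for 9 of 10 members, against 72.7% of all genes, and for 9 of the 9 periodic members, against 83.3% of the periodic genes. With every array scaled to 1 spread the counts fell to 7 of 10 members, against 60.4% of all genes, and 7 of the 9 periodic members, against 68.8% of the periodic genes; SLD5 and CDC7 then had the larger swing in the second cycle. With an estimated correlation the counts were also 7 of 10, against 72.8% of all genes, and 7 of 9, against 84.7% of the periodic genes. Without the 10 min array they were again 7 of 10, against 72.1%, and 7 of 9, against 80.2%. In these 2 settings the members' counts did not exceed the shares over all genes or over the periodic genes. CDC45 had a swing of 1.09 in the second cycle and 1.95 in the first (adjusted p = 0.28, limma). SLD2 had 0.75 in the second and 1.36 in the first (adjusted p = 0.16), and PSF2 had 0.52 and 0.91 (adjusted p = 0.20). The swings of SLD5 were close in both, 0.42 in the second cycle and 0.46 in the first (adjusted p = 0.97), as were those of CDC7, with 0.21 and 0.24.

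limma's interaction test over the 12 arrays from 10 min on called 0 of 10 members different between cycles, against 0.554% of all genes; 3 members (SLD2, PSF2 and CDC45) had an unadjusted p under 0.05, and with an estimated correlation the call was again 0. The median log2 ratio of swings, second over first, was -0.68 for the members and -0.58 for all genes, and with every array scaled to 1 spread it was -0.36 for the members and -0.23 for all genes. The result turned on the assumed period. With 65 or 70 min in place of 60 min, 3 members passed, again PSF2, CDC45 and SLD2. Over all genes 166 passed at 65 min and 527 at 70 min, against 34 at 60 min. The test takes swing and peak time together. At 60, 65 and 70 min the log2 swing ratios were -0.80, -0.74 and -0.68 (PSF2), -0.84, -0.85 and -0.86 (CDC45) and -0.86 at each (SLD2). In min, the peak shifts, second minus first, were -4.6, -10.3 and -16.0 (PSF2), 1.4, -3.4 and -8.2 (CDC45) and 0.5, -4.5 and -9.5 (SLD2).

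**Figure D3:**
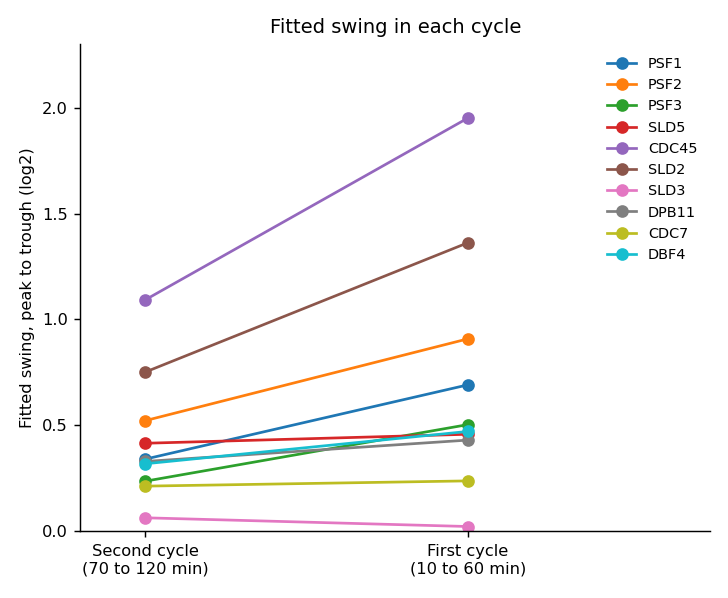
Fitted swing on the log2 scale (vertical axis) of each member in the second cycle (70 to 120 min, left) and in the first (10 to 60 min, right), 6 arrays each, with a line joining the values of a gene. The lines of 9 genes are lower on the left (7 with every array scaled to 1 spread, where SLD5 and CDC7 turn), and SLD3 lies near 0 in both. CDC45 has the largest drop in log2 units (1.09 and 1.95). As a ratio of swings, PSF3 (0.24 and 0.50) and PSF1 (0.34 and 0.69) fell more than CDC45.

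Over the whole course the members had no drift that passed the test. limma called a linear trend in 0 of 10 members, against 2.84% of all genes. SLD3 (0.12 ± 0.04 per 60 min) and SLD5 (-0.07 ± 0.03 per 60 min) had an unadjusted p under 0.05, and with an estimated correlation the count was 0. The mean ratio over the 12 arrays from 10 to 120 min ran from -0.17 ± 0.41 for SLD2 to 0.21 ± 0.61 for CDC45 (SD over arrays), and 4 of the 10 means were above 0.

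Apart from SLD3, the profiles resembled each other. The Pearson r of a member with the mean of the other 9, over the 13 arrays of this single course and with no test, was 0.98 for CDC45, 0.95 for PSF1 and 0.94 for PSF2, down to 0.73 for DBF4 and 0.21 for SLD3. Among the genes outside those 9, this r put CDC45 at rank 11, PSF1 at 42, PSF2 at 56, DBF4 at 350 and SLD3 at 1580. Genes outside the group thus lay closer to that mean than each of these members. The closest member to both PSF1 and PSF2 was CDC45 (r = 0.94 and r = 0.93), the closest to SLD2 was PSF2 (r = 0.92), the closest to CDC7 was PSF1 (r = 0.91) and the closest to DBF4 was DPB11 (r = 0.77). The genes outside the group whose profile was most like the members' mean were RNR1, of ribonucleotide reductase (r = 0.99), the cohesin genes SMC1 and IRR1 (r = 0.99 each), the tRNA splicing gene SEN34 (r = 0.99) and the primase gene PRI2 (r = 0.98). The mean was taken over centred values, so CDC45 and SLD2 weigh most in it, and all profiles share the same 13 arrays. RNR1 swung by 2.77 ± 0.33 with its peak at 19.4 ± 1.1 min, and PRI2 by 1.56 ± 0.21 with its peak at 18.7 ± 1.2 min, beside 1.57 and 19.0 min for CDC45.

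The fitted peaks of the members lay in the same stretch as those of the DNA polymerase genes and later than those of the MCM genes. Of 11 genes for the replicative polymerases and primase, 9 were periodic, against 30.1% of all genes, and all 9 peaked between 16.8 and 21.5 min. With the correlation estimated 7 of the 11 were periodic, against 13.9% of all genes. The widest swings were those of POL1 and POL12, catalytic and second subunit of the priming polymerase, and PRI2, at 2.03 ± 0.19, 1.72 ± 0.17 and 1.56 ± 0.21. The median swing of the 11 was 1.05, beside 0.41 for the 10 members. Of 8 other factors of helicase activation and of the fork, 7 were periodic, led by CTF4, which links polymerase to the helicase, and the fork protection genes MRC1 and TOF1, with swings of 1.32 ± 0.15, 1.18 ± 0.13 and 1.13 ± 0.13 and peaks between 17.4 and 19.0 min. With the correlation estimated 5 of the 8 were periodic.

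SLD7, the partner of Sld3, and MCM10, needed for helicase activation, are named after their values were seen. SLD7 swung by 0.32 ± 0.08 and peaked at 43.2 ± 2.1 min, far from the members (adjusted p = 0.027, limma). With the correlation estimated this call was lost (adjusted p = 0.097). For MCM10 the fitted swing was 0.13 ± 0.08, which failed the test (adjusted p = 0.41).

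Of 14 origin licensing genes 10 were periodic, and none of these 10 peaked between 15 and 25 min. With the correlation estimated 7 of the 14 were periodic. MCM5, MCM7 and MCM3, subunits of the helicase core that GINS and Cdc45 join, had swings of 1.61 ± 0.18, 1.52 ± 0.26 and 1.29 ± 0.15 and peaked at 5.8, 2.9 and 5.3 min. Among the S phase kinase genes 2 of 6 were periodic, the cyclin CLB6 (swing 2.06 ± 0.44, peak at 15.9 ± 1.8 min) and the inhibitor SIC1 (1.41 ± 0.26, 10.1 ± 1.7 min). CLB6 lost its call with the correlation estimated (adjusted p = 0.051). Of the MBF and SBF subunits and repressors measured, 5 of 5 were periodic, with peaks between 15.2 and 36.0 min. The corepressor NRM1 swung by 0.76 ± 0.14 and peaked at 30.4 ± 2.0 min, STB1 0.70 ± 0.12 and 15.2 ± 1.5 min, and SWI6 0.61 ± 0.09 and 26.2 ± 1.5 min. For comparison, 4 of 7 MATa-specific, 1 of 4 MATalpha-specific (STE3, swing 0.23 ± 0.07) and 0 of 7 meiosis and diploid genes were periodic. With the correlation estimated, the counts were 1 for the S phase kinase, 5 for MBF and SBF, 3 for MATa-specific genes and 0 for the last 2 lists. Over all genes 30.1% were periodic, and 13.9% with the correlation estimated. The counts of the S phase kinase and MATalpha-specific genes lay near these shares, and these lists are small.

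**Figure D4:**
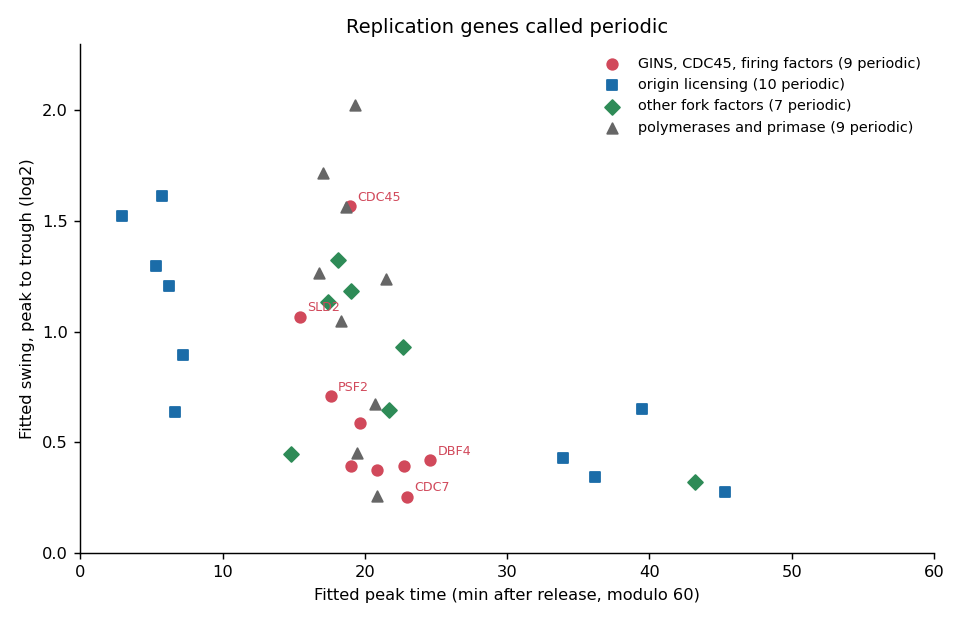
Fitted swing on the log2 scale (vertical axis) against fitted peak time in min after release, modulo 60 (horizontal axis), for the periodic genes of 4 replication lists, 1 point per gene. The 9 periodic members and the 9 polymerase and primase genes share the stretch from 15.5 to 24.6 min, with the MCM genes on the left and ORC1, ORC3, ORC4 and TAH11 on the right.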

How the data were processed

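The authors deposited 1 table with a ratio for each open reading frame, which is treated as log2, with Cy5 as numerator, and was not normalized further. Per the labels, sample cDNA carried Cy5 and asynchronous W303a cDNA Cy3. The log base, scanner, background correction, normalization and signal over background are not stated; array means lay within 0.0026 of 0. Precision is limited by 1 array per time point. Of 6295 rows, 5768 matched a RefSeq gene (assembly R64) by locus tag and 49 by synonym, 458 kept their own name and 20 had no readable name and were left out; rows of 27 genes were averaged. SWI4 was not analysed here, nor were promoter or protein sequences, so the planned count of promoter motifs was not made.

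limma 3.58.1 in R 4.3.3 fitted an intercept, linear time and a cosine and sine of 60 min to 6137 genes measured on at least 10 arrays, and a wave per cycle to the 12 arrays from 10 min on. F tests were adjusted by the Benjamini-Hochberg method over all genes. Standard errors of swing and peak come from the delta method. The fits were tested on simulated data. Alternatives were a common correlation between neighbouring arrays, each array left out, median centring, scaling to 1 SD, other periods, no linear term, a second harmonic, complete genes and first rows. Members and lists (origin licensing, other fork factors, S phase kinase, polymerases, MBF and SBF, mating type and meiosis genes) were chosen with earlier results of these data known. Named are all members, the 3 widest periodic genes of each list and the 5 most similar genes. Figures used matplotlib 3.10.9 in Python 3.11.15.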

Additional observations from a re-analysis of the deposited data

How the results depend on the processing

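No paired analysis was possible because each time point has 1 array. The number of periodic members was 7 with an estimated correlation, 8 or 9 with 1 array left out, 6 at a period of 70 min, 8 at 55 min, 7 with a second harmonic and 9 under the other alternatives. PSF1, PSF3, SLD5, CDC45 and SLD2 passed under all 23 alternatives, DBF4 under all but the estimated correlation, PSF2 under all but 70 min (adjusted p = 0.091), DPB11 under all but 70 min and the second harmonic, and CDC7 under 9. Over all genes the number periodic was 849 under an estimated correlation, 950 at 55 min, 920 with a second harmonic and 1187 without the 40 min array, against 1847. The number of members that differed between cycles was 3 at 65 or 70 min and 0 otherwise, and the cause was not tested; over all genes it was 34, against 0 under an estimated correlation, 3 without the 80 min array and 235 without the 60 min array. Members with a trend numbered 0 throughout, while over all genes the count was 174, 4 with an estimated correlation and 681 with arrays scaled to 1 SD. The median step of 10 min over 0 min was 0.37 with scaled arrays and 0.48 with median centring, both settings chosen after seeing the data. The median of 0 min minus later arrays was -0.08 against 60 min alone and -0.13 against 120 min alone. Peak times moved with the period: the 9 periodic members peaked from 18.4 min (SLD2) to 27.2 min (DBF4) at 55 min, from 12.6 to 22.7 min at 65 min and from 10.0 to 21.1 min at 70 min, and 6, 8 and 5 of the 9 then lay between 15 and 25 min. DBF4 peaked after SLD2 in all 23 alternatives. Members with a smaller second swing numbered 9 of 10 (72.7% of all genes), 7 with scaled arrays (60.4%) and 7 with an estimated correlation (72.8%). With 1 array left out they numbered 7 to 10 (67.1% to 75.7%). The median log2 ratio of swings was -0.68 (all genes -0.58), -0.36 with scaled arrays (-0.23) and -0.55 with an estimated correlation (-0.56). With 1 array left out it ran from -0.84 to -0.53 (all genes -0.68 to -0.43), which gives a standard error of 0.33. Without the 60 or the 90 min array the median of all genes was the lower one. These settings were counted after seeing the data. The signal over background of the spots is unknown, so how far dim spots limit the small swings of SLD3 and CDC7 cannot be given.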

Other observations

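Adjacent genes on the chromosome were looked at; the neighbours come from the RefSeq table of assembly R64, and none of the 10 members overlaps another gene in it. Of the 20 adjacent genes 8 were periodic, against 30.1% of all genes, and no test was made. Among the 6 upstream neighbours that lie on the opposite strand to a member, 3 were periodic, beside 4 of all 10 upstream and 4 of all 10 downstream neighbours. ERP3, next to CDC7 and a gene of transport from the endoplasmic reticulum, swung by 1.49 ± 0.16 with its peak at 20.0 min, beside 0.25 ± 0.07 and 22.9 min for CDC7. PAC11, a dynein gene next to SLD5, swung by 0.73 ± 0.12 with its peak at 25.3 min, and the peroxisome gene PEX11 next to PSF3 had 0.45 ± 0.08 and 24.2 min. The fitted swing of LCL2, next to CDC45, was 0.18 ± 0.06 and failed the test (adjusted p = 0.081, limma).

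On the downstream side, JEM1, a chaperone gene beside PSF2 that acts in nuclear fusion, swung by 1.00 ± 0.14 with its peak at 18.3 min, next to 0.71 ± 0.11 and 17.6 min for PSF2. GWT1, of membrane anchor synthesis, beside DPB11 had 0.63 ± 0.07 and 23.1 min, next to 0.37 ± 0.08 and 20.9 min for DPB11. The wave of RAD61, a cohesin regulator beside PSF1, failed the test, with a swing of 0.33 ± 0.11 and its peak at 19.2 min (adjusted p = 0.076, limma). The other periodic neighbours peaked further from the members. PKH1 beside SLD5 peaked at 9.1 min, TAF6 beside SLD3 at 39.0 min and HAP4 beside SLD2 at 55.5 min. The neighbours above were named after their values were seen, and whether probes of adjacent genes share signal was not tested.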
